A study of Drosophila melanogaster with 32 samples.

Results

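The genes described here are the 4 larval serum protein genes of Drosophila melanogaster, Lsp1alpha, Lsp1beta, Lsp1gamma and Lsp2, and the 2 fat body protein genes Fbp1 and Fbp2. They were taken by FlyBase symbol from the gene count table, where they are 6 of 17490 genes, and all 6 passed the filter on low counts in every fit. RNA from whole young adult flies, depleted of ribosomal RNA, was sequenced as read pairs in 32 libraries, 4 for each sex of 4 genotypes. The study asked how the chromosome-binding protein Pof and a satellite repeat family of the X chromosome affect expression of whole chromosomes, so these genes were not its subject. The series description names the 4 libraries of a group biological replicates and does not say whether they came from separate crosses, so p-values measure the spread between these pools.

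The mutant groups were PofD119, Zhr1 and PoX2Df1.688, and the wild-type strain was Oregon-R. PofD119 is a deletion that removes the coding region of Pof, Zhr1 lacks the pericentromeric block of the satellite on the X chromosome, and PoX2Df1.688 lacks a short euchromatic stretch of the repeat downstream of CG1840 on the X. Zhr1 males carried a wild-type Y chromosome without a translocation. Each mutant is 1 stock on a background not made isogenic with Oregon-R, and the mutation and the rest of the strain background cannot be told apart in any comparison with Oregon-R. Each sample was a pool of 10 flies, males or virgin females, with 3 flies of 6 to 8 h, 4 of 14 to 16 h and 3 of 22 to 24 h after hatching.

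Larval serum proteins are hexameric storage proteins of the hemocyanin superfamily that the larval fat body makes in large amounts and secretes into the hemolymph during the third larval instar. Before metamorphosis the fat body takes them back up under the control of the hormone ecdysone, and stores them in granules as a source of amino acids for building the adult. Larval fat body cells detach from each other in the pupa, persist in the freshly hatched adult and die soon after, when the adult fat body takes over. Whole-fly RNA does not show the cell of origin of a transcript.

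Lsp1alpha, Lsp1beta and Lsp1gamma encode the 3 kinds of subunit of larval serum protein 1. Lsp1alpha (FBgn0002562) lies on the plus strand of the X chromosome at X:12490291-12492982, Lsp1beta (FBgn0002563) on the plus strand at 2L:898500-901316, and Lsp1gamma (FBgn0002564) on the plus strand at 3L:66430-68995. These and the following positions are those of the deposited table, on the Release 6 genome assembly. Lsp2 (FBgn0002565), which forms a separate hexamer of a single kind of subunit, lies on the plus strand at 3L:12129393-12131869. It overlaps an antisense RNA gene, asRNA:CR11538, at 3L:12129103-12131488, whose span takes in most of Lsp2. That gene had 0 to 8 counts in a library. Fbp1 (FBgn0000639), on the minus strand at 3L:14094589-14098053, encodes a protein of the same superfamily described as the receptor through which the fat body takes up larval serum protein 1. Fbp2 (FBgn0000640), on the plus strand at 2L:9426784-9427917, is also named for the fat body but encodes a protein related to alcohol dehydrogenase and is not known as a receptor. Its end overlaps CG42847 on the same strand, which had 0 to 794 counts in a library. Counting did not use strand and left out pairs that fell in several genes or places, so pairs in these overlaps were not given to either gene. How many Lsp2 pairs were lost this way is not known, while its levels per kilobase use its whole exon length.

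Libraries held 12186486 to 28044163 counted read pairs in mutants, against 26816098 to 31356796 in Oregon-R females and 27141380 to 37992591 in Oregon-R males. The targeted gene followed the labels in males, with Pof at 11.4 to 13.8 CPM (counts scaled to 1e+06 pairs per library) in PofD119 males, against 306 to 341 CPM in Oregon-R males, and was lower with no overlap in PofD119 females too, at 6.59 to 9.93 CPM, against 12.9 to 14.4 CPM in Oregon-R females. Satellite deletions have no gene of their own in the table to check. CPM were set on library sizes scaled by the trimmed mean of M values (TMM). No pair of replicates was so alike as to be 1 library counted again. Other larval transcripts were near 0: 10 larval cuticle genes summed to 0.337 to 2.91 CPM in a library, and 17 salivary glue and Eig71E genes to 0.239 to 2.57 CPM, while the 6 genes summed to 141 to 5464 CPM.

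Per kilobase of exon, Fbp1 was the most abundant of the 6 genes in 28 of 32 libraries and Lsp1gamma in the other 4. Group means of Fbp1, in RPKM (CPM per kilobase of exon), were highest in Zhr1 males, at 536 RPKM, and lowest in Oregon-R males, at 112 RPKM. That placed Fbp1 at rank 121 of 17490 genes in Zhr1 males and rank 118 in PoX2Df1.688 males, against rank 619 in Oregon-R males. Lsp1gamma averaged 478 RPKM in Zhr1 males and 55.6 RPKM in Oregon-R males. As counted, without pairs in its antisense overlap, Lsp2 was the lowest of the genes except where Lsp1alpha was absent. Its highest group mean was 18.2 RPKM in PoX2Df1.688 males and its lowest 2.32 RPKM in Oregon-R males. All 6 genes together took 0.31 to 0.532% of the counted pairs in Zhr1 males and 0.292 to 0.422% in PoX2Df1.688 males, ranges that lie above those of all other groups except Zhr1 females, whose 0.171 to 0.335% reached into them. The share was 0.0143 to 0.134% in Oregon-R males and 0.0886 to 0.152% in Oregon-R females.

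**Figure D1:**
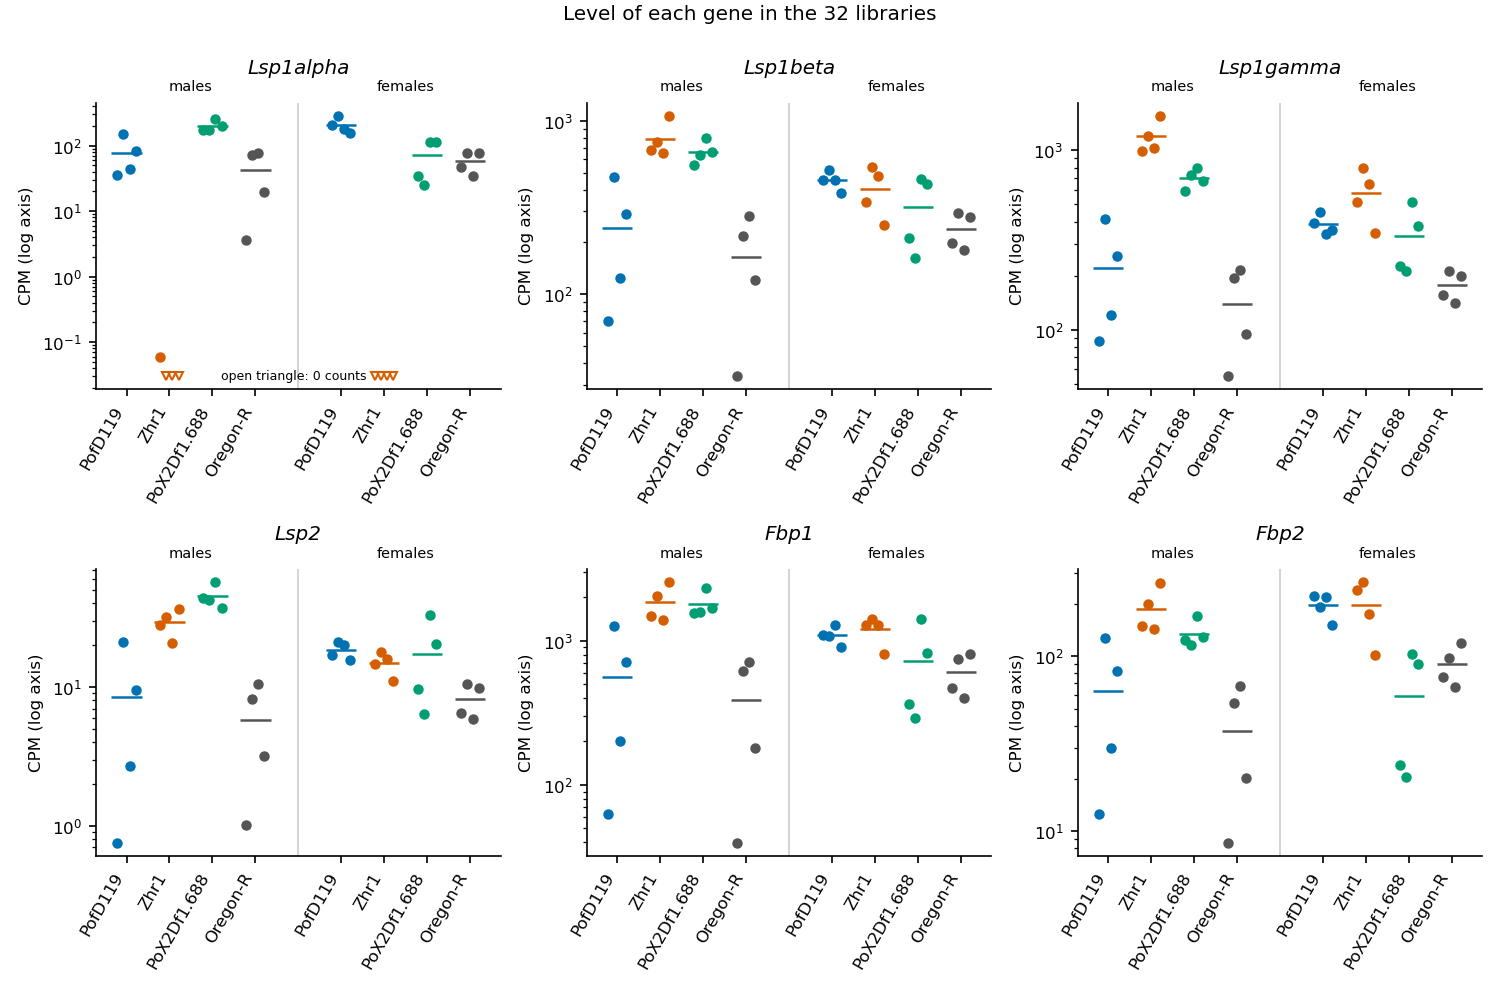
Level of each of the 6 genes in every library, in CPM on a log axis, by group, with males on the left and mutants left of Oregon-R in each sex. Points are libraries, short lines are group means and open triangles mark libraries with 0 counts: Lsp1alpha is at 0 in 7 of 8 Zhr1 libraries, and the lowest libraries of Oregon-R males and PofD119 males are low for all 6 genes together.

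Compared with wild type of the same sex, the clearest difference was in males of the satellite deletions. In Zhr1 males 5 of the 6 genes were higher than in Oregon-R males, where 12.6% of the 13503 genes tested in males were called higher, and Lsp1alpha was lower, as were 10.4% of genes. In PoX2Df1.688 males all 6 were higher, against a background of 11.5%. In PofD119 males 0 of 6 were called by edgeR or by DESeq2, while edgeR called 25.2% of all genes. At an unadjusted edgeR p below 0.05 there were 0 of 6, and the share of all genes at that threshold was not counted. Groups did not overlap for 6 of 6 genes in Zhr1 males, 6 of 6 in PoX2Df1.688 males and 0 of 6 in PofD119 males, where the shares over all genes were 24, 26 and 24.1%. The median log2 fold change of the 6 genes was 2.32 in Zhr1 males, 2.27 in PoX2Df1.688 males and 0.62 in PofD119 males, with medians over all genes of -0.0039, -0.0045 and 0.0028. Leaving out Oregon-R male 1, the lowest library of its group, left 5 of 6 genes called in Zhr1 males and 4 of 6 in PoX2Df1.688 males, and so did leaving out Oregon-R male 4. Each pair of groups without overlap had an exact permutation p of 0.0286, the smallest that 4 against 4 libraries can give. A change in whole flies can come from more or fewer cells of a type or from more or less RNA per cell, which cannot be told apart here.

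In females the picture differed by mutant. PofD119 females had 4 of 6 genes called higher than Oregon-R females, against 8.08% of the 11938 genes tested in females, and 6 of 6 without overlap, against 20.4%. Zhr1 females had 2 genes called higher, where 20.3% of all genes were, and Lsp1alpha called lower, as were 20.8% of genes. Groups did not overlap for 4 of 6 genes, where the share over all genes was 41.8%. PoX2Df1.688 females had 2 of 6 called higher, against 8.9%, and all 6 overlapped with Oregon-R females, while 28.7% of all genes did not. Median log2 fold changes of the 6 were 1.11, 0.90 and 0.36 in PofD119, Zhr1 and PoX2Df1.688 females, beside medians over all genes of -0.004, -0.013 and 0.0202. Leaving out 1 library gave 2 to 4 called genes in PofD119, 2 to 5 in Zhr1, with 5 without Zhr1 female 4, and 0 to 2 in PoX2Df1.688, with 0 without Oregon-R female 1 or 3 or PoX2Df1.688 female 3 or 4. Numbers after a group name are replicate numbers. In Zhr1 females 6 of 6 genes were called when libraries were scaled by total size or by muscle genes, which moved the median of all genes by 0.12 and 0.58 on the log2 scale, and 2 of 6 in PofD119 females when scaled by muscle genes. The 3 comparisons of a sex share the same 4 Oregon-R libraries, so they are given side by side and not as separate evidence.

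**Figure D2:**
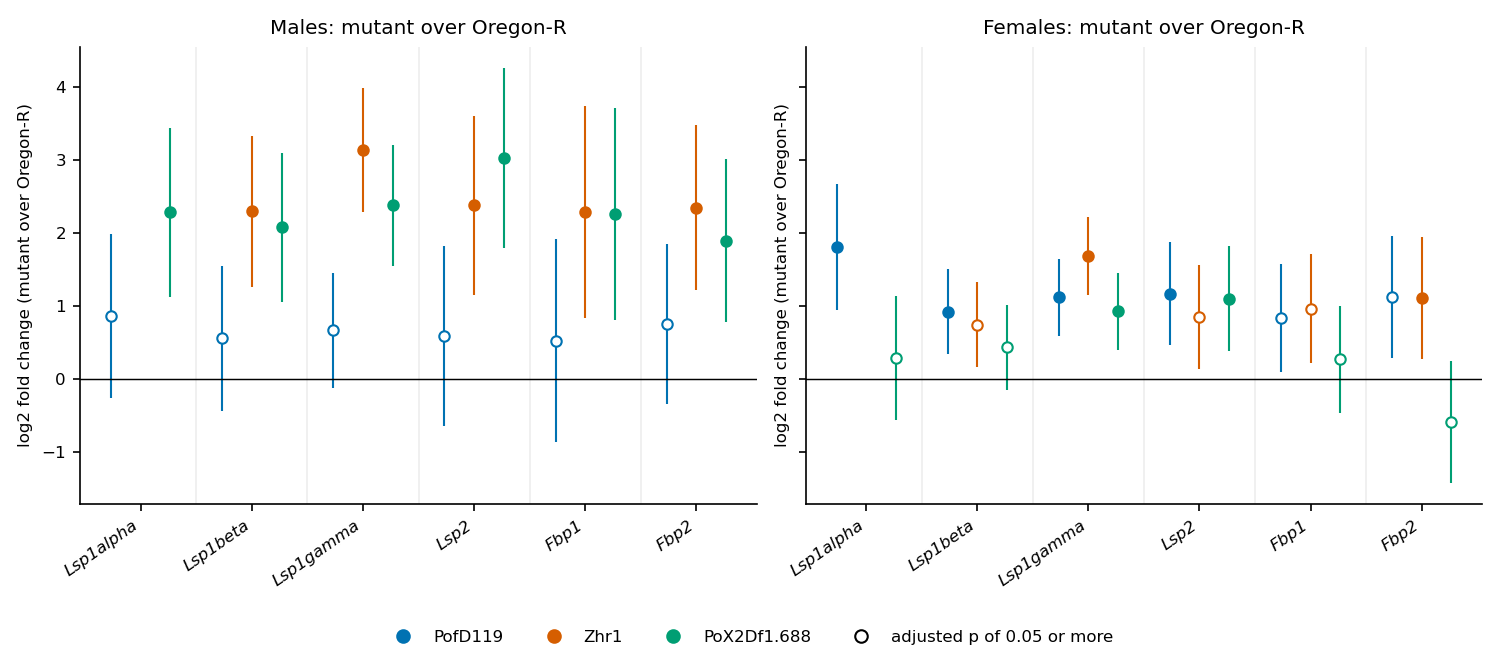
Log2 fold change of each gene in the 3 mutants against Oregon-R of the same sex, with 95% intervals from the standard error of the edgeR fit and open circles where adjusted p was 0.05 or more. In males Zhr1 and PoX2Df1.688 lie at 1.89 to 3.13 for every gene drawn, and Lsp1alpha in Zhr1 is not drawn because its counts were 0 or 1.

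Lsp1alpha, the X-linked subunit gene, was essentially missing in Zhr1 flies of both sexes. Its counts were 0 in all 4 Zhr1 female libraries and in 3 of 4 Zhr1 male libraries, with a single count in the remaining male library. Oregon-R females had 47.2, 75.7, 34.2 and 76.9 CPM and Oregon-R males 3.60, 72, 76.3 and 19.8 CPM. Against the 3 counts that a count of 0 allows over the summed scaled pairs of the group (0.0423 CPM), Lsp1alpha was at least 1380-fold lower in Zhr1 females than in Oregon-R females (edgeR adjusted p = 3.57e-06). In males 1 count over the 4 libraries gave a level 2690-fold lower than in Oregon-R males (95% counting interval 483 to 106000, edgeR adjusted p = 3.48e-05), an interval that covers counting error only. Groups did not overlap in either sex.

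By a rule that matches its own values, Lsp1alpha was also alone. Of 17490 genes it was the only 1 with at most 1 count in each of the 8 Zhr1 libraries and at least 1 CPM in each of the other 24 libraries, where it had 3.60 to 285 CPM. The rule passes over genes under 1 CPM in any of those 24 libraries, such as genes expressed in 1 sex only. Genes tested beside it on the X were expressed in Zhr1. Of the 18 genes within 100 kb, 11 were tested in females and 14 in males, and the rest were not examined. None of those tested had 0 counts in all Zhr1 libraries of the sex. In females 1 was higher and 2 were lower, and in males 1 was higher and 0 were lower. Log2 fold changes of the tested genes were -0.48 to 0.21 in females and -0.35 to 0.45 in males. The nearest, Cpr11A, a cuticle protein gene 843 bp away, had a log2 fold change of 0.21 in Zhr1 females against Oregon-R females (edgeR adjusted p = 0.651) and of 0.38 in males (edgeR adjusted p = 0.592), with at least 38 and 8 counts in every Zhr1 library of the sex. Mks1, 1413 bp away on the other side, had 0.45 in males (edgeR adjusted p = 0.35). The neighbour window was chosen after the values of Lsp1alpha were known, and reads that could show a change in the DNA at the gene were not analysed here.

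In PofD119 females and PoX2Df1.688 males Lsp1alpha was instead higher than in Oregon-R. The PofD119 females had 206, 285, 178 and 153 CPM, all above the Oregon-R females (log2 fold change 1.80, SE 0.44, edgeR adjusted p = 0.0128, exact permutation p = 0.0286). PoX2Df1.688 males had 175, 175, 255 and 197 CPM, each above the highest Oregon-R male at 76.3 CPM (log2 fold change 2.28, SE 0.59, edgeR adjusted p = 0.0105, exact permutation p = 0.0286). These were the highest 2 groups of the gene, and they overlap each other. PofD119 males had 35.1, 149, 43.7 and 83.9 CPM, which overlap the Oregon-R males, and their log2 fold change of 0.86 was not called (95% interval -0.26 to 1.98, edgeR adjusted p = 0.296). In PoX2Df1.688 females the 4 libraries fell into a lower and a higher pair, at 34.3, 24.9, 112 and 112 CPM, and spanned the Oregon-R females (log2 fold change 0.28, 95% interval -0.56 to 1.13, edgeR adjusted p = 0.695).

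Lsp1beta, the subunit gene on chromosome arm 2L, was present in every group. Zhr1 males had 674, 758, 648 and 1069.7 CPM and PoX2Df1.688 males 557, 631, 799.6 and 663 CPM, against 33.5, 216, 284 and 121 CPM in Oregon-R males. Every library of both mutants lay above the highest Oregon-R male. The gene was 4.91-fold higher in Zhr1 males (log2 fold change 2.30, SE 0.53, edgeR adjusted p = 0.00401) and 4.2-fold higher in PoX2Df1.688 males (log2 fold change 2.07, SE 0.52, edgeR adjusted p = 0.00892). PofD119 males, at 70.4, 477, 124 and 289 CPM, lay partly within and partly above the Oregon-R males (log2 fold change 0.55, 95% interval -0.44 to 1.54, edgeR adjusted p = 0.462).

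Among females Lsp1beta was called in 1 mutant. PofD119 females had 453, 519, 458 and 381 CPM and Zhr1 females 339, 545, 478 and 249 CPM, against 198, 293, 180.1 and 280.0 CPM in Oregon-R females. The PofD119 females all lay above the Oregon-R females (log2 fold change 0.92, SE 0.30, edgeR adjusted p = 0.0459), but this call ended when any 1 of 7 of the 8 libraries, all but PofD119 female 4, was left out (edgeR adjusted p 0.054 to 0.128). Zhr1 female 4 lay within the Oregon-R range, and the log2 fold change of 0.74 in Zhr1 females was not called with it (edgeR adjusted p = 0.0583) and was called without it (0.91, edgeR adjusted p = 0.0272). PoX2Df1.688 females again had 2 low and 2 high libraries, at 212, 163, 464 and 431 CPM, and were not called (log2 fold change 0.43, edgeR adjusted p = 0.339).

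Lsp1gamma, the subunit gene near the tip of chromosome arm 3L, had the largest difference of the 6 in Zhr1 males among the genes that were higher. Zhr1 males had 995, 1195, 1034 and 1555 CPM and PoX2Df1.688 males 593, 725, 793 and 669.8 CPM, against 54.9, 193, 214 and 93.9 CPM in Oregon-R males. All Zhr1 males lay above all PoX2Df1.688 males, and these above all Oregon-R males. The gene was 8.77-fold higher in Zhr1 males (log2 fold change 3.13, SE 0.43, edgeR adjusted p = 4.39e-05) and 5.19-fold higher in PoX2Df1.688 males (log2 fold change 2.37, SE 0.42, edgeR adjusted p = 0.000583). PofD119 males had 86.3, 416, 120.0 and 258 CPM and overlapped the Oregon-R males (log2 fold change 0.66, 95% interval -0.13 to 1.45, edgeR adjusted p = 0.254).

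Lsp1gamma was the only 1 of the 6 genes called higher in females of all 3 mutants. PofD119 females had 395, 453, 339 and 357 CPM and Zhr1 females 513, 793, 649 and 344 CPM, against 156, 211, 141 and 199.6 CPM in Oregon-R females. Neither mutant overlapped the Oregon-R females, with log2 fold changes of 1.12 in PofD119 (SE 0.27, edgeR adjusted p = 0.00918) and 1.68 in Zhr1 (SE 0.27, edgeR adjusted p = 0.000253, exact permutation p = 0.0286 in each). PoX2Df1.688 females had 225, 211, 517 and 377 CPM, and the lowest library was just under the highest Oregon-R female (log2 fold change 0.92, SE 0.27, edgeR adjusted p = 0.0241, exact permutation p = 0.0571). That last call ended without Oregon-R female 1 or 3 or without PoX2Df1.688 female 3 or 4 (edgeR adjusted p 0.0607 to 0.107).

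Within a library the balance of the autosomal subunit genes differed by genotype, which is given as values with no test because the ratio was chosen after they were seen. Per kilobase, Lsp1gamma was 1.6 to 1.76 times Lsp1beta in Zhr1 males and 1.09 to 1.26 times in PoX2Df1.688 males, against 0.830 to 1.80 times in Oregon-R males. In females it was 1.49 to 1.66 times in Zhr1, 0.960 to 1.43 times in PoX2Df1.688 and 0.814 to 1.03 times in PofD119, against 0.784 to 0.865 times in Oregon-R. All 8 Zhr1 libraries thus lay above all other libraries but Oregon-R male 1, the library with the lowest levels of most of the 6 genes, which held the highest ratio of all. Lsp1alpha was 0.407 to 0.576 times Lsp1beta in PofD119 females, against 0.199 to 0.288 times in Oregon-R females.

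**Figure D3:**
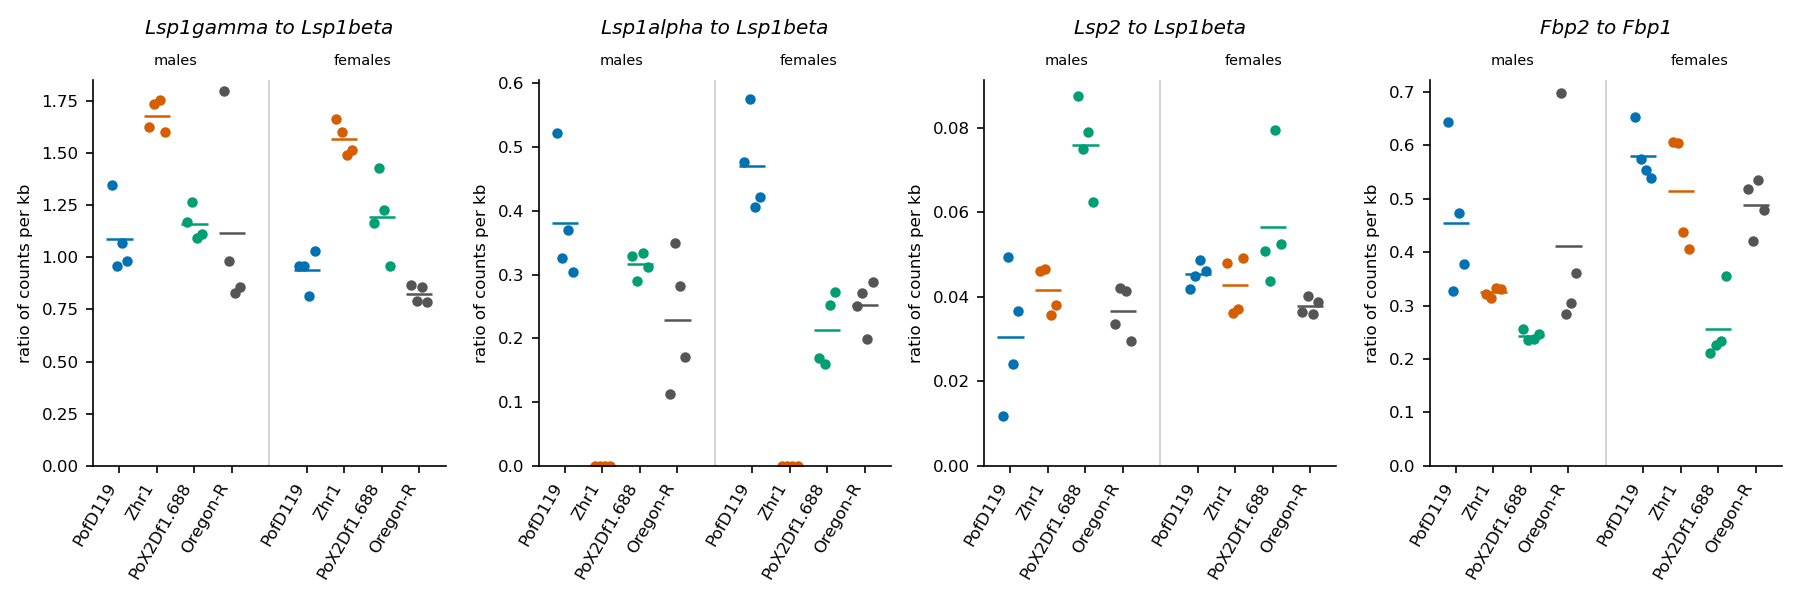
Ratios between members within each library, per kilobase of exon, by group, with males on the left and mutants left of Oregon-R in each sex. Points are libraries and short lines are group means: the Lsp1gamma to Lsp1beta ratio is 1.49 to 1.76 in Zhr1. The Fbp2 to Fbp1 ratio is 0.211 to 0.357 in PoX2Df1.688. Zhr1 males, at 0.315 to 0.333, lie within that range, as do Oregon-R males 2 and 3 (0.284 and 0.304) and PofD119 male 2 (0.327).

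Lsp2, the other storage protein gene, had the lowest counted level of the 6 where Lsp1alpha was present, so its counts carry the most counting error. Pairs in its antisense overlap are missing from this level. PoX2Df1.688 males had 43.8, 42.6, 56.8 and 37.3 CPM and Zhr1 males 28, 31.8, 20.9 and 36.7 CPM, against 1.01, 8.19, 10.6 and 3.20 CPM in Oregon-R males. Both mutants lay above all Oregon-R males, and PoX2Df1.688 males above all Zhr1 males. Lsp2 was 8.13-fold higher in PoX2Df1.688 males (log2 fold change 3.02, SE 0.63, edgeR adjusted p = 0.00232), the largest difference of the 6 genes in that mutant, and 5.19-fold higher in Zhr1 males (log2 fold change 2.38, SE 0.62, edgeR adjusted p = 0.00995). PofD119 males spread 28-fold, at 0.755, 21.2, 2.68 and 9.51 CPM, with 1 library below and 1 above all Oregon-R males (log2 fold change 0.58, 95% interval -0.65 to 1.81, edgeR adjusted p = 0.541). Without PofD119 male 2 that log2 fold change was -0.34.

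In females Lsp2 had 17.1, 21, 20.1 and 15.8 CPM in PofD119, 14.7, 17.8, 16 and 11.1 CPM in Zhr1 and 9.69, 6.40, 33.1 and 20.4 CPM in PoX2Df1.688, against 6.49, 10.6, 5.85 and 9.80 CPM in Oregon-R. PofD119 and Zhr1 females lay above all Oregon-R females, and PoX2Df1.688 females spanned them. The gene was called higher in PofD119 females (log2 fold change 1.16, SE 0.36, edgeR adjusted p = 0.0368) and in PoX2Df1.688 females (log2 fold change 1.09, SE 0.37, edgeR adjusted p = 0.0455, exact permutation p = 0.257), and not in Zhr1 females (log2 fold change 0.84, edgeR adjusted p = 0.0752). The PofD119 call ended without any 1 of Oregon-R females 1, 3 and 4 and PofD119 females 1, 2 and 3 (edgeR adjusted p 0.0559 to 0.107). The PoX2Df1.688 call ended without any 1 of the 4 Oregon-R females or PoX2Df1.688 female 3 or 4 (edgeR adjusted p 0.0526 to 0.244).

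Fbp1, the receptor gene, varied most between libraries of a group. Zhr1 males had 1484, 2027, 1379.7 and 2542 CPM and PoX2Df1.688 males 1562, 1584, 2324 and 1678 CPM, against 39.6, 617, 714 and 181 CPM in Oregon-R males. Every library of both mutants lay above the highest Oregon-R male, while the Oregon-R males themselves spread 18-fold. The gene was 4.88-fold higher in Zhr1 males (log2 fold change 2.29, SE 0.74, edgeR adjusted p = 0.0326) and 4.78-fold higher in PoX2Df1.688 males (log2 fold change 2.26, SE 0.74, edgeR adjusted p = 0.038). The Zhr1 call ended without Oregon-R male 1 or 4 or Zhr1 male 2 or 4 (edgeR adjusted p 0.0539 to 0.0971), and the PoX2Df1.688 call without Oregon-R male 1 or 4 or any 1 of the PoX2Df1.688 males (edgeR adjusted p 0.0544 to 0.109), with log2 fold changes of 1.87 to 2.32 in these fits. PofD119 males spread 20.2-fold, at 62.5, 1261, 202 and 707 CPM (log2 fold change 0.52, 95% interval -0.87 to 1.91, edgeR adjusted p = 0.636).

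No female comparison of Fbp1 was called. PofD119 females had 1091, 1081, 1275 and 899 CPM and Zhr1 females 1276, 1412, 1290.5 and 812 CPM, against 472, 749, 401 and 802 CPM in Oregon-R females. Both lay above all Oregon-R females (exact permutation p = 0.0286 in each), with log2 fold changes of 0.83 in PofD119 (95% interval 0.09 to 1.57, edgeR adjusted p = 0.149) and 0.96 in Zhr1 (95% interval 0.22 to 1.70, edgeR adjusted p = 0.0525). Without Zhr1 female 4 the Zhr1 difference was called (1.11, edgeR adjusted p = 0.0413). PoX2Df1.688 females had 363, 289.6, 1412 and 822 CPM, with libraries below and above the Oregon-R range (log2 fold change 0.26, edgeR adjusted p = 0.672), and without PoX2Df1.688 female 3 the log2 fold change was -0.30.

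Fbp2, the gene related to alcohol dehydrogenase, differed in its order of groups. Its highest groups were PofD119 and Zhr1 females, while the other autosomal genes were highest in males of Zhr1 and PoX2Df1.688. Zhr1 males had 148, 198, 142 and 261 CPM and PoX2Df1.688 males 124, 116, 171 and 128 CPM, against 8.57, 54.2, 67.4 and 20.3 CPM in Oregon-R males. Neither mutant overlapped the Oregon-R males, with log2 fold changes of 2.34 in Zhr1 (SE 0.58, edgeR adjusted p = 0.00661) and 1.89 in PoX2Df1.688 (SE 0.57, edgeR adjusted p = 0.0249). The PoX2Df1.688 call ended without Oregon-R male 1 or 4 or PoX2Df1.688 male 3 (log2 fold change 1.56 to 1.76, edgeR adjusted p 0.0548 to 0.08). PofD119 males had 12.5, 128, 29.7 and 82.8 CPM and were not called (log2 fold change 0.75, 95% interval -0.34 to 1.85, edgeR adjusted p = 0.354).

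PofD119 females had 221, 192, 219 and 150.4 CPM of Fbp2 and Zhr1 females 240.0, 265, 175 and 102 CPM, against 75.9, 97.9, 66.7 and 119 CPM in Oregon-R females. The PofD119 females lay above all Oregon-R females but did not pass the edgeR threshold (log2 fold change 1.11, edgeR adjusted p = 0.0859, exact permutation p = 0.0286). Zhr1 females overlapped them and passed it narrowly (log2 fold change 1.10, SE 0.43, edgeR adjusted p = 0.0491, exact permutation p = 0.0571), a call that ended when any 1 library but Zhr1 female 4 was left out (edgeR adjusted p 0.0523 to 0.125). In PoX2Df1.688 females, at 23.8, 20.3, 102 and 90.8 CPM, Fbp2 was the only 1 of the 6 genes with a negative log2 fold change (-0.59, 95% interval -1.43 to 0.25, edgeR adjusted p = 0.361), which was not called. Per kilobase, Fbp2 was 0.235 to 0.256 times Fbp1 in PoX2Df1.688 males and 0.211 to 0.357 times in PoX2Df1.688 females, against 0.284 to 0.698 times in Oregon-R males and 0.421 to 0.536 times in Oregon-R females. In the other mutants it was 0.315 to 0.333 times in Zhr1 males and 0.327 to 0.643 times in PofD119 males, and 0.407 to 0.607 times in Zhr1 females and 0.540 to 0.6525 times in PofD119 females. These ratios were also chosen after their values were seen and were not tested.

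By mean log2 CPM, Oregon-R males were the lowest group for every gene but Lsp1alpha, for which the Zhr1 groups were lower. For Lsp1alpha the order was PofD119 females, PoX2Df1.688 males, PofD119 males, PoX2Df1.688 females, Oregon-R females, Oregon-R males and the Zhr1 groups, and of neighbours in it PoX2Df1.688 males and PofD119 males did not overlap, nor did Oregon-R males and Zhr1 males. For Lsp1beta the order was Zhr1 males, PoX2Df1.688 males, PofD119 females, Zhr1 females, PoX2Df1.688 females, Oregon-R females, PofD119 males and Oregon-R males, and the only neighbours without overlap were PoX2Df1.688 males and PofD119 females. Lsp1gamma had the same top groups, with a gap between Zhr1 males and PoX2Df1.688 males only. For Lsp2 PoX2Df1.688 males stood apart above Zhr1 males, and for Fbp1 the single gap lay between PoX2Df1.688 males and Zhr1 females. For Fbp2 each group overlapped the next.

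The genes varied far more between libraries of a group than most genes do. The SD of log2 CPM within groups was 0.938 for Lsp1alpha, 0.752 for Lsp1beta, 0.591 for Lsp1gamma, 0.997 for Lsp2, 1.08 for Fbp1 and 0.899 for Fbp2, against a median of 0.252 over 13948 genes. Among the 7648 genes with a mean log2 CPM of at least 3, this placed them at percentiles 98.35 to 99.82, and among all 13948 genes at percentiles 88.39, for Lsp1gamma, to 99.43. The SD of Lsp1alpha takes in the Zhr1 groups, where its counts were 0 or 1. These groups lower it, with SDs of 0 in females and 0.354 in males. The lowest male libraries were Oregon-R male 1, with log2 CPM 1.14 to 2.77 under the group mean over the 6 genes, and PofD119 male 1, with 0.91 to 2.46 under it, while the 4 PoX2Df1.688 males stayed within 1.49-fold for Fbp1.

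**Figure D4:**
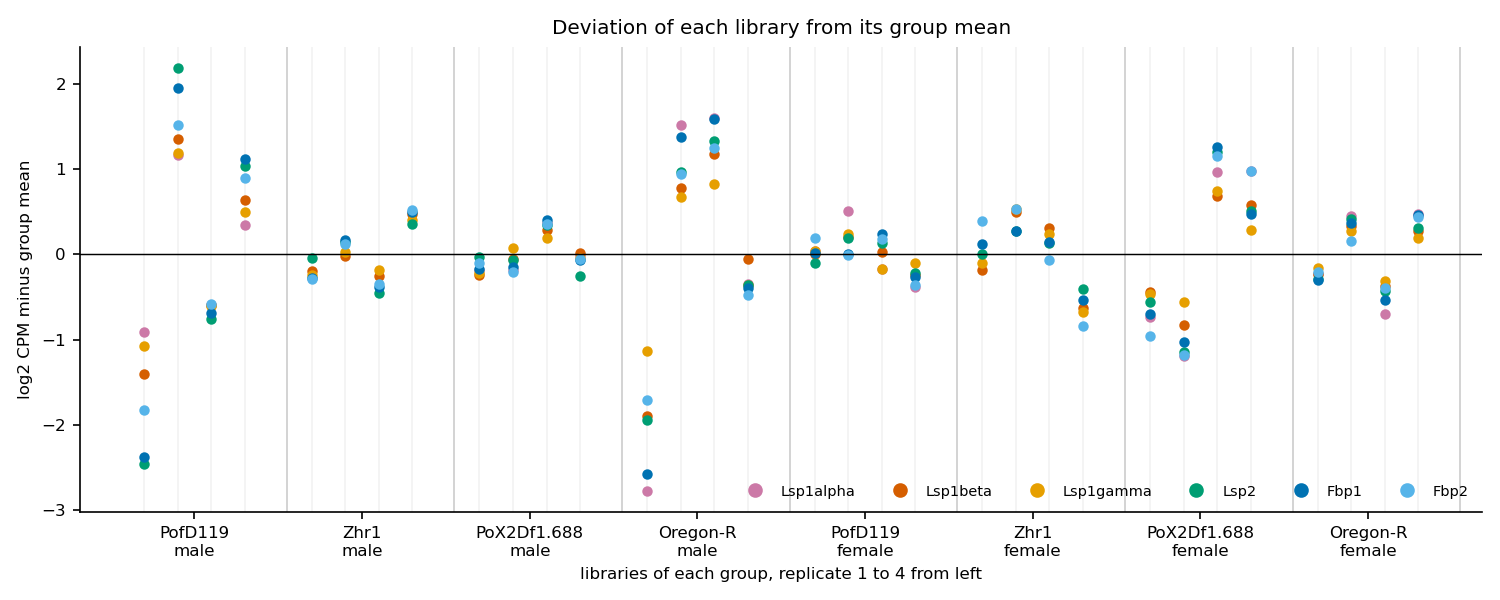
Deviation of each library's log2 CPM from its group mean, by gene and library, with males on the left and mutants left of Oregon-R in each sex. Points of the 6 genes move together: all 6 are below the mean in Oregon-R male 1 (-1.14 to -2.77) and in PofD119 male 1 (-0.91 to -2.46).

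This variation was shared. Deviations of log2 CPM from the group mean were correlated in all 15 pairs of genes, with Pearson's r of 0.871 to 0.983 and Spearman's rho of 0.928 to 0.976, over 32 libraries or, for pairs with Lsp1alpha, the 24 outside Zhr1. Each permutation p, with 100000 permutations within groups, was 1e-05 or 2e-05 (adjusted over the 15 pairs, 1.07e-05 to 2e-05), where 1e-05 is the smallest possible. Leaving out the 2 libraries farthest from the median on the x axis left r at 0.852 to 0.982. The closest pair was Lsp2 and Fbp1 (r = 0.983, rho = 0.976), a storage protein gene and the receptor gene. How many pairs of other genes were correlated this closely was not examined. The points of a pair share libraries, and each pool mixed flies of 3 age windows whose actual share of the RNA is not known, so its part in this variation was not tested.

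Several genes outside the set followed the mean z-scored log2 CPM of the 3 Lsp1 genes. By deviations from group means over 32 libraries the closest were Obp99b of the odorant-binding protein family (r = 0.972), the cuticle protein gene Cpr49Ac (r = 0.947), CG34166 (r = 0.911), the tetraspanin gene Tsp42Ep (r = 0.900), Ama, which encodes an immunoglobulin-domain protein (r = 0.892), CG2444 (r = 0.880), Jhe, which encodes juvenile hormone esterase (r = 0.844), Ance-4 (r = 0.842), CG8100 (r = 0.841) and the small heat shock protein gene Hsp23 (r = 0.83). The members had r of 0.941 to 0.988 by the same measure, with the Lsp1 genes part of the mean itself. By levels over all 32 libraries, where the absence of Lsp1alpha in Zhr1 lowers the mean there, the closest were Obp99b (r = 0.903), Reg-2 (r = 0.857), Ama (r = 0.841), fat-spondin (r = 0.836), CG2444 (r = 0.832), NimC2 (r = 0.830), Tsp42Ep (r = 0.823), Ance-4 (r = 0.820), Cpr49Ac (r = 0.809) and CG10621 (r = 0.803). Lsp1alpha itself had r = 0.238 by that measure. These are descriptions over libraries that share group and depth.

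Sex comparisons within a genotype were fitted over all 32 libraries with 13948 genes. In Oregon-R 1 of 6 genes was called lower in males than in females, where 26.4% of genes were, and 0 of 6 were without overlap, against 58.3%. That gene was Fbp2 (log2 fold change -1.26, SE 0.55, edgeR adjusted p = 0.0474, exact permutation p = 0.0571), and its call ended without Oregon-R female 1, 2 or 4 or Oregon-R male 1 or 4 (log2 fold change -1.33 to -1.01, edgeR adjusted p 0.0543 to 0.135). The other 5 genes had log2 fold changes of -0.64 to -0.35 (edgeR adjusted p 0.317 to 0.514). In PofD119 2 of 6 were called lower in males, against 28.9%: Fbp2 (-1.63, SE 0.55, edgeR adjusted p = 0.0111) and Lsp1alpha (-1.40, SE 0.57, edgeR adjusted p = 0.035). Both were without overlap, as were 53.4% of genes. The Lsp1alpha call ended without PofD119 female 2 or PofD119 male 1, 3 or 4 (edgeR adjusted p 0.056 to 0.108), while without PofD119 male 2, the highest of its group, all 6 genes were called lower in males.

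In PoX2Df1.688 the called genes were higher in males. The genotype had 4 of 6 genes called higher in males than in females, against 36.3% of all genes, and 6 of 6 without overlap, against 58.4%. The 4 were Lsp1alpha (log2 fold change 1.51, SE 0.57, edgeR adjusted p = 0.0249), Lsp2 (1.38, SE 0.55, edgeR adjusted p = 0.0303), Lsp1beta (1.06, SE 0.46, edgeR adjusted p = 0.0455) and Lsp1gamma (1.06, SE 0.38, edgeR adjusted p = 0.0156). Fbp1 and Fbp2 had 1.31 and 1.18 (edgeR adjusted p = 0.0735 and 0.0617). Each of the 4 calls ended without PoX2Df1.688 female 1 or 2, the low females, and calls also ended without PoX2Df1.688 male 3 for Lsp1alpha, male 2 or 3 for Lsp2 and male 2, 3 or 4 for Lsp1beta (edgeR adjusted p 0.0541 to 0.14 over the 4 genes). Without PoX2Df1.688 female 3 all 6 genes were called, with Fbp1 at 1.86 (edgeR adjusted p = 0.022) and Fbp2 at 1.58 (edgeR adjusted p = 0.025), and without PoX2Df1.688 female 4 Fbp2 was called too (1.47, edgeR adjusted p = 0.0393).

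In Zhr1 1 of 6 genes, Lsp1gamma, was called higher in males (log2 fold change 1.06, SE 0.38, edgeR adjusted p = 0.0142), where 43% of all genes were. The call ended without Zhr1 female 1 or 4 or Zhr1 male 4 (edgeR adjusted p 0.0649 to 0.102). Lsp1beta, Lsp1gamma and Lsp2 were without overlap between the sexes, 3 of 6 against 63% of all genes. Lsp1beta and Lsp2 had log2 fold changes of 0.97 in each (edgeR adjusted p = 0.0604 and 0.115), Fbp1 0.63 (edgeR adjusted p = 0.371) and Fbp2 -0.06 (edgeR adjusted p = 0.924). For Lsp1alpha, at or under the floor in both sexes, no fold is given.

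**Figure D5:**
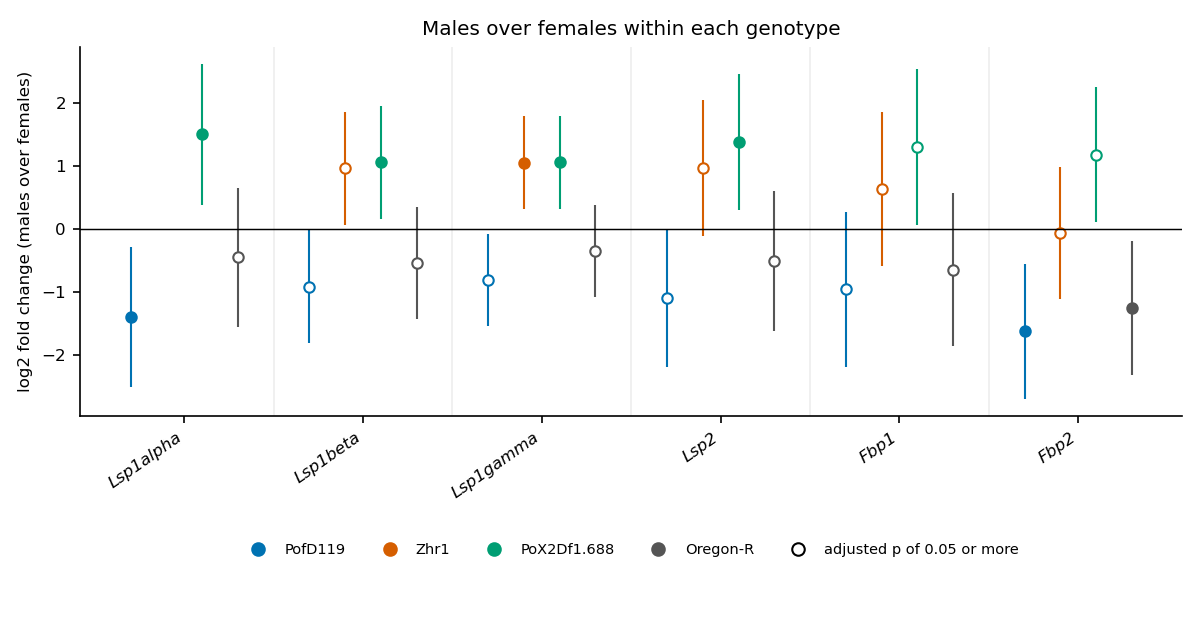
Log2 fold change of males against females in each genotype, by gene, with 95% intervals from the standard error of the edgeR fit and open circles where adjusted p was 0.05 or more. Values lie below 0 for all genes in PofD119 and Oregon-R and above 0 for all in PoX2Df1.688, and Lsp1alpha in Zhr1 is not drawn.

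Whether a mutant's difference from Oregon-R itself differed between males and females was tested as an interaction, and no gene passed. For PoX2Df1.688 the male difference exceeded the female one by 1.41 to 2.44 on the log2 scale over the 6 genes, most for Fbp2 (2.44, SE 0.77, edgeR adjusted p = 0.0576), and the other 5 had edgeR adjusted p of 0.111 to 0.197. By edgeR adjusted p, 5.79% of all genes were called. DESeq2 called Fbp2 (2.41, adjusted p = 0.0402). All 6 had an unadjusted p below 0.05 in edgeR (0.0037 to 0.0359). The share of all genes at that looser threshold was not counted, nor was the share called by DESeq2, so neither can be set against 5.79%. For Zhr1 the 5 genes other than Lsp1alpha had 1.19 to 1.51, closest for Lsp1gamma (1.40, SE 0.53, edgeR adjusted p = 0.0546), with 23.1% of all genes called by adjusted p. Of the 5, 2 had an unadjusted p below 0.05, again without a share of all genes at that threshold. For PofD119 the values were -0.95 to -0.32 (edgeR adjusted p 0.752 to 0.961), with 1.41% of all genes called by edgeR adjusted p. There 0 of 6 were at an unadjusted p below 0.05 and 0 were called by DESeq2. Leaving out single libraries made calls for Fbp2 in PoX2Df1.688 (Oregon-R male 2 or 3 or PoX2Df1.688 female 3 or 4, edgeR adjusted p 0.0348 to 0.0483), Lsp1gamma in Zhr1 (Oregon-R male 2 or 3 or Zhr1 female 2, 0.0314 to 0.04) and Lsp1beta in Zhr1 (Oregon-R male 3, 0.0425).

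Because Lsp1alpha is X-linked and the other subunit genes are autosomal, its ratio to each of them was compared between sexes within a library, which needs no scaling. The log2 ratio of Lsp1alpha to Lsp1beta was 0.60 higher in males than in females of PoX2Df1.688 (exact permutation test p = 0.0286, adjusted over 6 tests 0.0858). It differed by -0.32 in PofD119 (exact p = 0.143, adjusted 0.214) and by -0.26 in Oregon-R (exact p = 0.571, adjusted 0.571). The log2 ratio to Lsp1gamma differed by 0.64 in PoX2Df1.688 (exact p = 0.114, adjusted 0.214), by -0.52 in PofD119 (exact p = 0.0286, adjusted 0.0858) and by -0.62 in Oregon-R (exact p = 0.4, adjusted 0.48). None passed after adjustment, and 4 against 4 libraries cannot pass it unless several of the 6 tests reach the smallest p. Zhr1 has no such ratio.

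Lists of other genes of fat body function were counted in the same fits. They are read beside the shares of all genes called higher and lower, which were 12.6 and 10.4% in Zhr1 males, 11.5 and 9.4% in PoX2Df1.688 males, 13.6 and 11.6% in PofD119 males, 20.3 and 20.8% in Zhr1 females, 8.9 and 10.5% in PoX2Df1.688 females and 8.08 and 8.4% in PofD119 females. Of 14 genes of fat body transport and storage, 6 were higher and 0 lower in Zhr1 males, 3 higher and 0 lower in PoX2Df1.688 males, and 0 were called in PofD119 males, with median log2 fold changes of 0.52, 0.22 and -0.06. They included Ilp6, an insulin-like peptide made by the fat body (0.99 in Zhr1 males, edgeR adjusted p = 0.000421, and 1.05 in PoX2Df1.688 males, edgeR adjusted p = 0.000304), Mtp, needed for lipoprotein assembly (0.92 in Zhr1 males, edgeR adjusted p = 0.00201), and mdy, a triglyceride-synthesis enzyme (0.95 in PoX2Df1.688 males, edgeR adjusted p = 0.00233). In females 2 were higher and 0 lower in PofD119, among them the lipoprotein gene apolpp (0.73, edgeR adjusted p = 0.0242), 1 higher and 3 lower in Zhr1, including the glycogen enzymes Glyp (-0.58, edgeR adjusted p = 0.00135) and Glys (-0.39, edgeR adjusted p = 0.00795), and 1 higher and 1 lower in PoX2Df1.688. Of the 3 prophenoloxidase genes, relatives of the larval serum proteins that make melanin, PPO2 was higher in males of all 3 mutants (1.02 in Zhr1, 0.68 in PoX2Df1.688 and 0.92 in PofD119, edgeR adjusted p = 0.00301, 0.0465 and 0.00521) and PPO1 and PPO2 in PoX2Df1.688 females (1.70 and 0.95, edgeR adjusted p = 0.000671 and 0.0222). Median log2 fold changes of the 3 were 0.27, 0.66 and 0.11 in males and 0.51, 0.95 and 0.06 in females of Zhr1, PoX2Df1.688 and PofD119. Of 2 genes of the head fat body, to was higher in Zhr1 males (1.32, edgeR adjusted p = 0.00214) and lower in Zhr1 females (-0.60, edgeR adjusted p = 0.0145), and no other call was made in a mutant against Oregon-R. Differences between these lists and the 6 genes were not tested.

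Genes of the ecdysone response and cell death were called in both directions, while calls of autophagy genes ran mostly lower in females and in PofD119 males. Of 12 ecdysone genes 0 were higher and 1 lower in Zhr1 males, 2 and 0 in PoX2Df1.688 males and 2 and 2 in PofD119 males, with 1 and 3, 1 and 0, and 1 and 0 in females of Zhr1, PoX2Df1.688 and PofD119. Of 7 cell death genes tested, 1 was higher and 1 lower in Zhr1 males, the caspase gene Dronc (0.95, edgeR adjusted p = 1.19e-06) and the death activator hid (-0.62, edgeR adjusted p = 5.11e-05). The counts were 1 and 0 in PoX2Df1.688 males, 0 and 1 in PofD119 males, and in females 1 and 2 in Zhr1, 0 and 1 in PoX2Df1.688 and 0 and 0 in PofD119. Of the autophagy genes, 17 tested in males and 16 in females, 3 were higher and 1 lower in Zhr1 males, 2 and 1 in PoX2Df1.688 males and 1 and 4 in PofD119 males, and in females 2 and 6 in Zhr1, 1 and 6 in PoX2Df1.688 and 1 and 2 in PofD119. Of 5 endocytic receptor genes at most 1 was higher and 2 lower in any comparison of a mutant with Oregon-R. Median log2 fold changes of these 4 lists lay between -0.22 and 0.09.

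Markers of other cells moved with some of the groups, and their part in the results was not tested. In Zhr1 females 5 of 5 tested late eggshell genes were higher, with sums of 907, 404, 2098 and 1.47 CPM, against 1.03 to 1.97 CPM in Oregon-R females. Zhr1 female 4, with the lowest of these sums, also had the least of the 5 genes other than Lsp1alpha. Their highest sum was in Zhr1 female 2, at 3032 CPM, and not in Zhr1 female 3, which had the highest eggshell sum. Female germline genes were higher in 4 of 4 (sums of 1015.5 to 1355 CPM, against 520.3 to 718 CPM in Oregon-R females) and muscle genes lower in 10 of 12 (sums of 43927 to 53065 CPM, against 63305 to 78748 CPM in Oregon-R females), and none of these markers was at 0 in all libraries of the group. In PoX2Df1.688 females 2 of 5 eggshell genes were higher, with sums of 23.2, 3.98, 436 and 4.48 CPM, and female germline genes in 2 of 4, with sums of 828 to 945 CPM. The library with the highest eggshell sum there, PoX2Df1.688 female 3, also had the most Lsp1beta, Lsp1gamma, Lsp2, Fbp1 and Fbp2 of its group. In PofD119 females muscle genes were higher in 4 of 12 and lower in 1 (sums of 76771 to 105610 CPM). Hemocyte sums were lower without overlap in females of all 3 mutants, at 171 to 245 CPM in Zhr1, 189 to 238 CPM in PoX2Df1.688 and 201 to 255 CPM in PofD119, against 290.1 to 342 CPM in Oregon-R females, with 1 of 4 tested genes called lower in each. Median log2 fold changes of the 4 tested genes were -0.32, -0.17 and 0.0039 in the same order, so the sums do not stand for each gene.

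In males the yolk protein genes and fit, which mark female adult fat body, summed to 46.7 to 127 CPM in Zhr1, 9.22 to 17 CPM in PoX2Df1.688 and 7.82 to 9.69 CPM in PofD119, against 6.73, 359, 8.15 and 8.79 CPM in Oregon-R. With all libraries 3 of 3 tested yolk protein genes were called lower in PofD119, 1 of 3 in PoX2Df1.688 and 0 of 3 in Zhr1. These calls rest on Oregon-R male 2, which was left out after the values were seen. Without it 0 of 3 were called in PofD119 and PoX2Df1.688 (median log2 fold changes 0.03 and 0.57, against -4.39 and -3.62 with it) and 3 of 3 were called higher in Zhr1 (3.25, against -1.67 with it). Without the same library 6 of 6 larval serum and fat body protein genes were still called in Zhr1 males and 6 of 6 in PoX2Df1.688 males. Testis genes were higher in 3 of 6 in Zhr1 males (1123 to 1563 CPM), 2 of 6 in PoX2Df1.688 males (1234 to 1441 CPM) and 2 of 6 in PofD119 males (1249 to 1821 CPM), against 1229.7 to 1378 CPM in Oregon-R males. Accessory gland genes were higher in 4 of 6 in Zhr1 males (2282 to 2825 CPM), 4 of 6 in PoX2Df1.688 males (1973 to 2475 CPM) and 5 of 6 in PofD119 males (2421 to 3489 CPM), against 2073 to 2400.3 CPM in Oregon-R males. Of 4 tested hemocyte genes 1 was higher and 1 lower in Zhr1 males (142 to 169 CPM), 2 were higher in PoX2Df1.688 males (169 to 222 CPM) and 2 lower in PofD119 males (126 to 174 CPM), against 196 to 262 CPM in Oregon-R males. Median log2 fold changes of the 4 were -0.13, 0.45 and -0.20 in the same order.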

How the data were processed

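Total RNA of pooled whole flies was depleted of ribosomal RNA and sequenced as read pairs by the authors, who trimmed reads with Trimmomatic 0.36, filtered ribosomal reads with SortMeRNA, aligned to the Release 6 fly genome with STAR 2.5.4b and counted with featureCounts 1.6.3. The deposited values are raw counts of read pairs per gene, without strand, and pairs of several genes or places were left out by the authors. Depth of each group is given with the results, and intervals from counts cover counting error only. FlyBase IDs were matched to symbols for 17288 of 17490 genes. The deposited tables of satellite blocks and of repeats were not used.

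Counts were analysed in R 4.3.3 with edgeR 4.0.16 and limma 3.58.1, and figures were drawn with Python 3.11.15 and matplotlib 3.10.9. Genes passing filterByExpr were scaled by TMM, edgeR's quasi-likelihood F test was applied two-sided with the Benjamini-Hochberg adjustment over all genes tested, with 0.05 as threshold. A mutant was set against Oregon-R in a fit of the 16 libraries of a sex (11938 genes in females, 13503 in males), and males against females and interactions in a fit of all 32 libraries (13948 genes). SE is the absolute log2 fold change divided by the square root of F, and 95% intervals are 1.96 SE either way. This normal approximation is somewhat narrower than the F test allows. For Lsp1beta in PofD119 males against females the interval of -1.81 to -0.02 left out 0 at an unadjusted edgeR p of 0.0547. CPM use TMM-scaled library sizes, log2 CPM a prior count of 2, and ratios 0.5 added counts. Exact permutation tests compare log2 CPM of 4 against 4 libraries, two-sided. Ratio tests were planned over 8 comparisons, and the 2 of Zhr1 have no ratio. The scripts were tested on simulated counts.

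Alternatives were DESeq2 1.42.0, RLE and upper-quartile factors, library size alone, muscle genes as scale, other filters, other sets of libraries, each library left out in turn, other prior and added counts, and a replicate block. Named genes were the 6 members, at most 2 genes of each list with the largest called log2 fold change in a comparison, and the 10 genes most like the Lsp1 genes. Lists covered prophenoloxidases, ecdysone response, cell death, autophagy, fat body transport and storage, endocytic receptors, larval glue and cuticle genes, and markers of other cells, and 138 of 139 entries matched. Members and lists were chosen with earlier results of these data known.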

Additional observations from a re-analysis of the deposited data

Results flagged for a closer look

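Of 46 sets of 4 values, 1 library per replicate, for a gene in a group, 1 had a value standing apart from the others by the usual test on the gap to the nearest value, where chance gives about 1 in 20. Fbp1 was at 2324 CPM in PoX2Df1.688 male 3, and the next library of the group was at 1678 CPM, a gap of 0.848 of the group's range. All 6 genes were highest in this library within the group. Leaving it out ended the calls of Fbp1 and Fbp2 in PoX2Df1.688 males against Oregon-R males and left 4 of 6 genes called higher. That was not particular to this library. The Fbp1 call also ended without PoX2Df1.688 male 1, 2 or 4, and both calls ended without Oregon-R male 1 or 4.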

How the results depend on the processing

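Counts of called genes in Zhr1, PoX2Df1.688 and PofD119 males against Oregon-R males stayed within 1.5 times under every alternative tried. Elsewhere they moved. With DESeq2 they were 0 for males against females of Oregon-R, 1 of PofD119, 2 of Zhr1, and 1 for the PoX2Df1.688 interaction. RLE factors gave 0 for Oregon-R males against females. Upper-quartile factors gave 5 for PofD119 and 2 for PoX2Df1.688 males against females. Library size alone gave 6 in Zhr1 females. Scaling to muscle genes gave 2 in PofD119 females, 6 in Zhr1 females, 0 for Zhr1 males against females and 1 for PoX2Df1.688 males against females. This scaling moved the median log2 fold change of all genes too, by -0.26, 0.58, -0.66 and -0.17 in these comparisons. Under it mean levels were 394 CPM for Lsp1beta in PofD119 females, and in Zhr1 females 622 CPM for Lsp1beta, 885 CPM for Lsp1gamma, 23 CPM for Lsp2, 1850 CPM for Fbp1 and 299 CPM for Fbp2. Keeping genes with at least 1 count gave 1 in PoX2Df1.688 females. All 32 libraries in 1 fit gave 2 in PofD119 females and 0 in PoX2Df1.688 females. Fits of only the 8 libraries compared gave 6 in Zhr1 females, 1 in PoX2Df1.688 females and 4 for Zhr1 males against females. Shares of all genes called under the alternatives of this section are not given, so these counts are not set against them. The cause of these moves was not tested.

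Replicate numbers did not pair the samples in any of 10 comparisons (correlations of same-numbered deviations -0.226 to 0.157, with at most 2 of 4 samples closest to their own number). With the replicate number as a block, the count was 2 in PofD119 females, 1 in PoX2Df1.688 females, 4 for PofD119 and 2 for Zhr1 males against females, 2 for the Zhr1 interaction and 1 for the PoX2Df1.688 interaction.

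Leaving out 1 library at a time gave counts of 2 to 4 in PofD119 females, 2 to 5 in Zhr1 females and 0 to 2 in PoX2Df1.688 females. For males against females they were 0 to 1 in Oregon-R, 1 to 6 in PofD119, 0 to 1 in Zhr1 and 0 to 6 in PoX2Df1.688, and for interactions 0 to 2 in Zhr1 and 0 to 1 in PoX2Df1.688. Directions that turned were all of differences not called. The log2 fold change ranged from -0.22 to 0.99 for Fbp1 and -0.34 to 1.08 for Lsp2 in PofD119 males, -0.30 to 0.52 for Fbp1 and -0.04 to 0.57 for Lsp1alpha in PoX2Df1.688 females, and -0.41 to 0.03 for Fbp2 in Zhr1 males against females. The PofD119 interaction ranged from -1.05 to 0.16 for Fbp1, -0.92 to 0.08 for Fbp2 and -0.90 to 0.04 for Lsp1beta, and the log2 ratio of Lsp1alpha to Lsp1beta from -0.50 to 0.04 in Oregon-R males against females. Correlations between the genes kept their direction and call under other prior counts and library sizes. Depth limits chiefly Lsp2 and the bound on Lsp1alpha in Zhr1.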

Other observations

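Ratios between the genes within a library gave some values that belong to no comparison above. Per kilobase, Lsp2 was 0.0625 to 0.0874 times Lsp1beta in PoX2Df1.688 males, 0.0358 to 0.0466 times in Zhr1 males and 0.0119 to 0.0493 times in PofD119 males, against 0.0294 to 0.0422 times in Oregon-R males. In females it was 0.0437 to 0.0793 times in PoX2Df1.688, 0.0362 to 0.0493 times in Zhr1 and 0.0418 to 0.0486 times in PofD119, against 0.0360 to 0.0401 times in Oregon-R. All 8 PoX2Df1.688 libraries lay above all 8 Oregon-R libraries. Fbp1 was 1.7 to 2.12 times Lsp1beta in Zhr1 males and 1.99 to 2.31 times in PoX2Df1.688 males, against 0.938 to 2.27 times in Oregon-R males. The ratios were chosen after values were seen and were not tested.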
